A study of Homo sapiens with 24 samples.

Results

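Transcripts of 10 genes of the epidermal growth factor (EGF) receptor system were followed in AGS, an established line of human gastric adenocarcinoma cells, after 24 h with kinase inhibitors. The genes were taken by symbol from a table of 23368 genes: the ligands AREG, EREG, HBEGF, TGFA, BTC, EPGN and NRG1, the membrane proteases ADAM10 and ADAM17, and the receptor inhibitor ERRFI1. All 10 symbols were in the table. The filter on low counts kept 13947 genes, among them 7 of the 10, and left out AREG, EPGN and NRG1.

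The EGF family ligands are made as precursors anchored in the cell membrane, and proteases called sheddases cut them free. ADAM17 is known as the main sheddase of the precursors of HBEGF, TGFA, AREG and EREG, and ADAM10 as that of BTC. Freed ligands bind the receptors of the ERBB family, which signal through the RAS, MEK and ERK kinases and through PI3 kinase, and several ligand genes are themselves targets of that signalling. ERRFI1, also called MIG6, is induced by the same signalling and binds the kinase domain of EGFR to block it. In the stomach, TGFA is known as a product of the gastric mucosa that restrains acid secretion.

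There were 6 groups of 4 libraries each, labelled as biological replicates of wild-type cells of this single line, kept in medium with fetal calf serum. Control cells had no inhibitor, and whether they received vehicle is not stated in the labels. The single agents were PI103 at 0.7 µM, which blocks PI3 kinase and mTOR, PD0325901 at 0.035 µM, which blocks MEK, and (5Z)-7-oxozeaenol (oxozeaenol below) at 0.5 µM, which blocks TAK1. PI103 was also combined with oxozeaenol (0.35 µM and 0.25 µM) and with PD0325901 (0.35 µM and 0.0175 µM), that is, at 50% of each single concentration. Libraries held 38.1 M to 84.2 M counts in genes. The replicate number is also the batch number in the labels. The 5 epithelial markers EPCAM, KRT8, KRT18, KRT19 and CDH1 summed to 4382 to 7191 CPM (counts-per-million) in each library. The 8 markers of leukocytes, fibroblasts and endothelium summed to 15.1 to 18.5 CPM in control, 33.7 to 35.4 CPM with PI103, 19.9 to 25.9 CPM with PD0325901 and 9.55 to 11.4 CPM with oxozeaenol. In the combinations they summed to 10.3 to 12.5 CPM with oxozeaenol and to 24.1 to 27.4 CPM with PD0325901. Most of this was the collagen gene COL1A1, at 7.93 to 34.2 CPM. Of the leukocyte genes, PTPRC and CD3E had at most 7 and 1 counts in a library. CD68, also a leukocyte gene, stood at 0.617 to 3.50 CPM, with up to 204 counts. In the test described below, CD68 was higher than control with PD0325901 and with PI103 and PD0325901. The part of these markers in the results below was not tested.

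HBEGF, ERRFI1, TGFA and BTC are the members that were lower in every treatment, and the 250 bases before their start sites are printed so that this group can be seen at the level of sequence. Windows were matched by symbol in RefSeq promoters of GRCh38.p14 for 9 of the 10 members, and NRG1 was left out by choice. TGFA had 2 windows, of which the upstream is shown. The start sites are those of RefSeq and can differ from the ends of the GENCODE gene spans given below. The TGFA window lies within its gene span, and the HBEGF and BTC windows lie partly within theirs. They run 5′ to 3′ on the gene's strand. Capitals mark matches on either strand to 8 searched motifs. The AP-1 site was spelled TGANTCA, the ETS site CCGGAAG and the TATA box TATAAA. The GC box was spelled GGGCGG. The box that binds NF-Y was spelled CCAAT, the TEAD site GGAATG and the cyclic AMP half-site TGACG, and the CArG box is given by name.
HBEGF (chr5:140346604-140346853, minus strand): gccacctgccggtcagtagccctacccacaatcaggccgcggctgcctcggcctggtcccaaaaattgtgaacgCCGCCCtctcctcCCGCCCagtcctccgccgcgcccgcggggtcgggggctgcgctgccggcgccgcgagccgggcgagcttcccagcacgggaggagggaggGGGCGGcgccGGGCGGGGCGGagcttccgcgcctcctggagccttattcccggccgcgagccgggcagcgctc
ERRFI1 (chr1:8026310-8026559, minus strand): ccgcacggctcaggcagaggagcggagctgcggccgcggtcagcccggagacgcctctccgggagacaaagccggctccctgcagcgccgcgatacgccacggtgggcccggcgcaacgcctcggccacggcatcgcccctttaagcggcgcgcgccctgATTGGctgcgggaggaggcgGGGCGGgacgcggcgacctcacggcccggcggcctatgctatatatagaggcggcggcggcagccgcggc
TGFA (chr2:70553827-70554076, minus strand): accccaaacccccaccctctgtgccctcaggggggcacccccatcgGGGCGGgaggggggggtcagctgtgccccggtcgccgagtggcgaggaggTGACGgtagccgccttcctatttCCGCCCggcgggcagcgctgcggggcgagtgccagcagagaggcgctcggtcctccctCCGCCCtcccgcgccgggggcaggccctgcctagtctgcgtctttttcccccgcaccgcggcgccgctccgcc
BTC (chr4:74794524-74794773, minus strand): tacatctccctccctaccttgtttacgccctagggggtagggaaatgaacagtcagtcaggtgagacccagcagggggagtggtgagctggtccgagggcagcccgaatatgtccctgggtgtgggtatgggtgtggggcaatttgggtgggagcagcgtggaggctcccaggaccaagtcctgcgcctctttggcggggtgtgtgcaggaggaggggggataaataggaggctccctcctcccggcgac
The HBEGF window held 5 GC boxes, of which the last 2 overlap by their end base, and had 76.4% G and C. The ERRFI1 window held 1 GC box and 1 CCAAT box, the TGFA window 3 GC boxes and 1 cyclic AMP half-site, and the BTC window no match. Of all 35114 promoter windows of this length, 42.6% held a GC box, 32% a CCAAT box and 21.2% a cyclic AMP half-site. The AP-1, ETS and CArG motifs were found in 6.57%, 8.52% and 1.16% of all windows and in none of the 4 printed here. Among windows not printed, that of ADAM17 held GC boxes and an ETS site, and those of ADAM10 and AREG held GC boxes. The EREG and EPGN windows held neither, and the other TGFA window had no match. GC boxes were thus not particular to the printed members. A match is a description of letters, and its absence says only that these letters are not in the window.

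The first question was which members moved with each treatment against control. HBEGF fell 8.51-fold with PI103, 5.29-fold with PD0325901 and 6.26-fold with oxozeaenol. ERRFI1 fell 6.49-fold, 18.0-fold and 12.9-fold in the same order. TGFA and BTC also fell with each treatment, by less. ADAM10 was slightly higher in 3 of the treatments, ADAM17 was lower in 4, and EREG passed the test in none. Calls are at an adjusted p under 0.05 in edgeR's quasi-likelihood test over the 13947 genes, which is the source of every adjusted p below. In bulk RNA, fewer cells with a transcript and less transcript per cell cannot be told apart. The 5 comparisons share the 4 control libraries, so their values are given side by side and not as separate evidence.

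With PI103, 5 of the 7 tested members were called, all lower, where 51.4% of all genes were called and 25.2% were called lower. With PD0325901, 5 were called, 4 of them lower, against 58.6% of all genes called and 29.9% lower. With oxozeaenol, 5 were called and all were lower, against 51.9% and 26.1%. PI103 with oxozeaenol had 6 calls, 5 of them lower, against 55.6% and 27.9%, and PI103 with PD0325901 also had 6 calls with 5 lower, against 64.8% and 32.6%. The share of members called in either direction thus lay above that of all genes in each treatment, with only 7 members to count. The median log2 fold change of the 7 members was -0.83 with PI103, -0.96 with PD0325901 and -0.35 with oxozeaenol, beside 0.02, -0.02 and 0.02 over all genes. In the combinations it was -0.55 with oxozeaenol and -0.96 with PD0325901, beside 0.02 and 0.01.

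**Figure D1:**
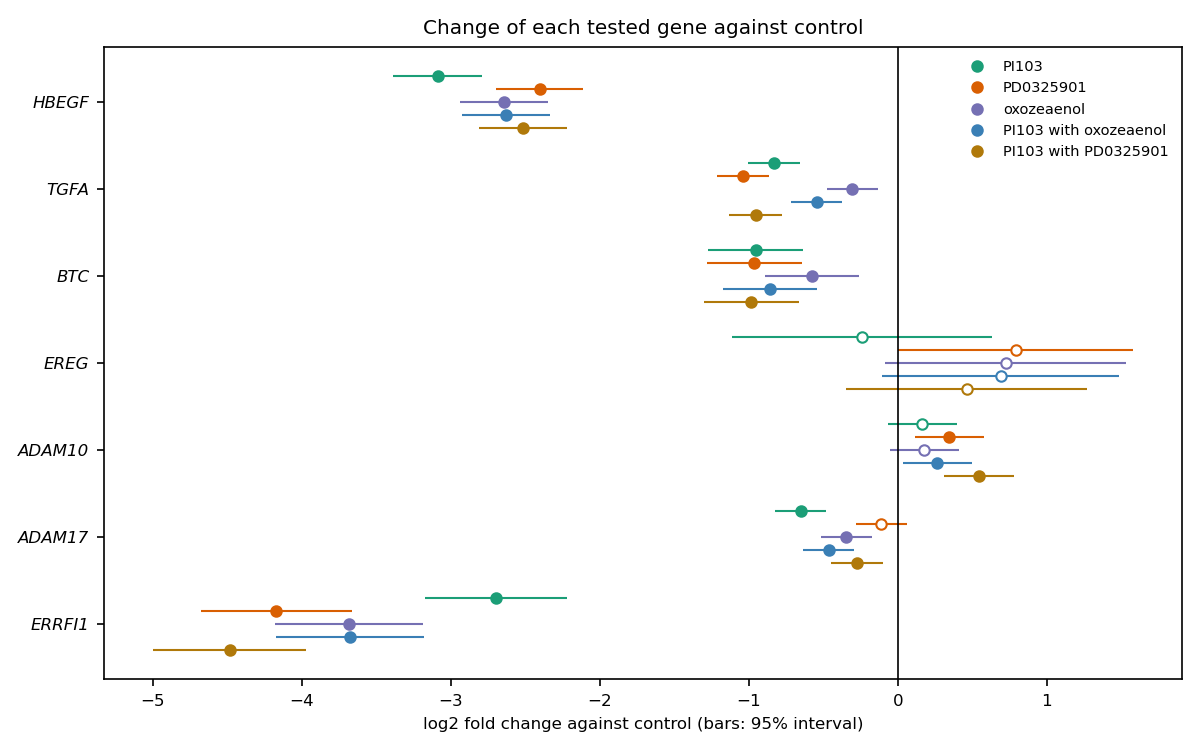
Log2 fold change against control (horizontal axis) of the 7 tested members in the 5 treatments, with bars for the 95% interval of the fit; filled points passed an adjusted p under 0.05. HBEGF and ERRFI1 lie between -2.40 and -4.49, TGFA and BTC between -0.30 and -1.04, and all EREG points are open.

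Among the ligands other than AREG, whose 0 counts are taken up below, HBEGF had the highest level in control. HBEGF encodes heparin-binding EGF-like growth factor, a ligand of EGFR and ERBB4 whose precursor is also the diphtheria toxin receptor. Its gene lies at chr5:140332843-140346631 on the minus strand of GRCh38 and has 6 exon blocks. In control replicates 1 to 4 HBEGF stood at 69.2, 93.0, 72.3 and 103 CPM. With PI103 the 4 libraries held 10.7, 10.3, 10.1 and 8.46 CPM, with PD0325901 16.9, 17.6, 16.0 and 13.5 CPM, and with oxozeaenol 16.3, 16.2, 11.2 and 10.2 CPM. Every treated library was thus below every control library.

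In the combinations HBEGF stood at 14.1, 14.4, 12.9 and 13.2 CPM with oxozeaenol and at 16.1, 15.3, 13.3 and 14.4 CPM with PD0325901. HBEGF fell against control, with a log2 fold change of -3.09 with PI103 (SE 0.147, adjusted p 5.34e-14), -2.40 with PD0325901 (SE 0.142, adjusted p 5.04e-13) and -2.65 with oxozeaenol (SE 0.144, adjusted p 2.7e-13). It was -2.63 (SE 0.143, adjusted p 1.5e-13) and -2.52 (SE 0.142, adjusted p 1.73e-13) in the combinations with oxozeaenol and with PD0325901. Within batches the HBEGF difference ran from -2.03 to -3.59 over the 5 treatments. Ordered from the largest fall among 13947 genes, HBEGF was number 76 with PI103, 133 with PD0325901 and 68 with oxozeaenol.

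The order of HBEGF levels was control (84.4 ± 16.5 CPM, SD, n = 4), PD0325901 (16.0 ± 1.80), PI103 with PD0325901 (14.8 ± 1.19), PI103 with oxozeaenol (13.6 ± 0.716), oxozeaenol (13.5 ± 3.22) and PI103 (9.92 ± 1.00). Of neighbours in this order, control differed from PD0325901, and oxozeaenol differed from PI103 by 0.44 on the log2 scale (adjusted p 0.0124). The last difference was lost without oxozeaenol replicate 1 or 2, the libraries with the higher values, and the lowest oxozeaenol library overlapped the PI103 range. Among PD0325901, the combinations and oxozeaenol, no neighbours in HBEGF level differed beyond the spread between replicates.

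**Figure D2:**
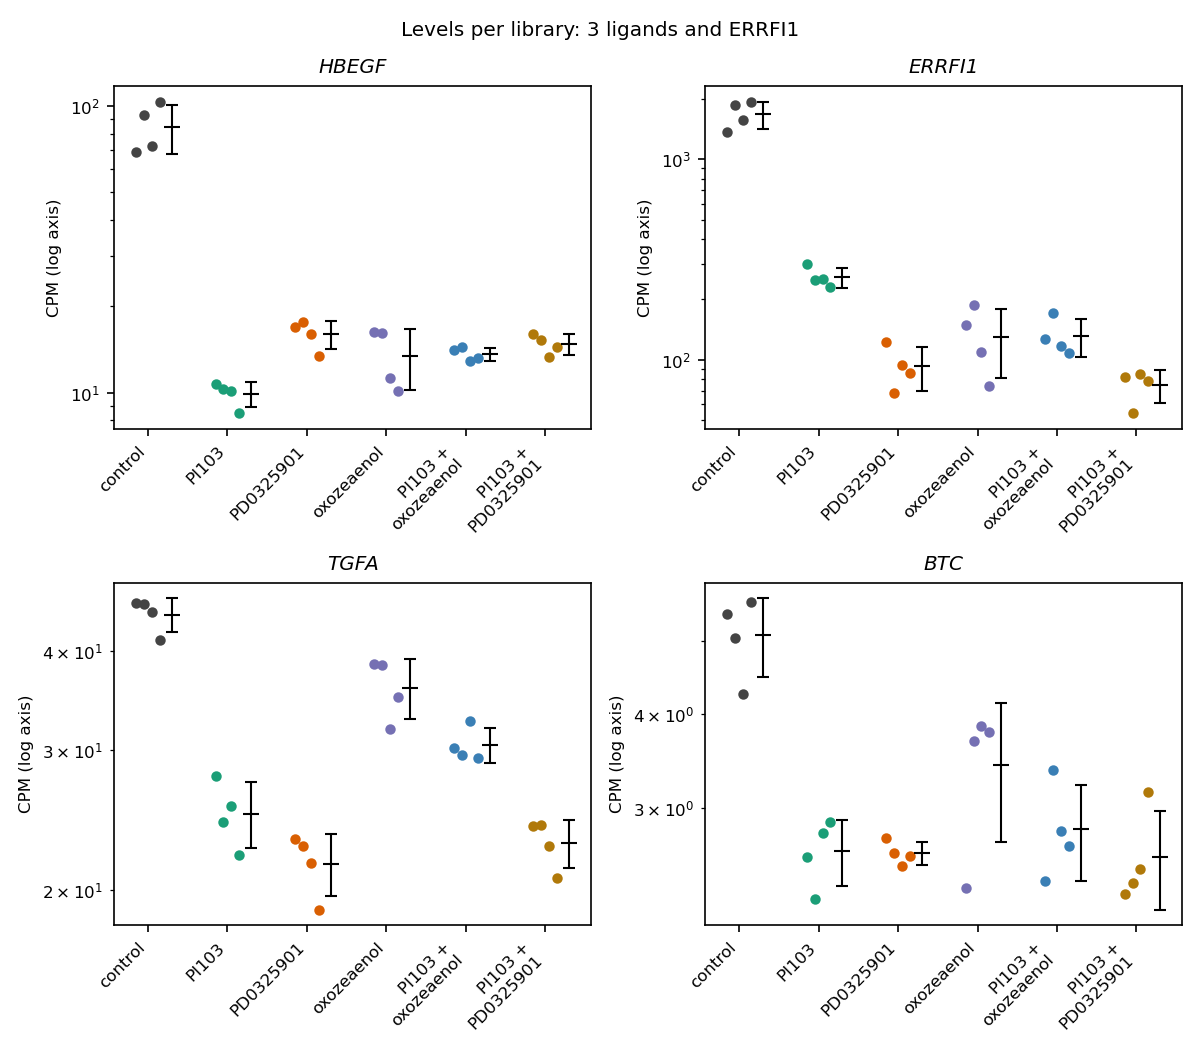
CPM per library on log axes for HBEGF, ERRFI1, TGFA and BTC in the 6 groups; points are libraries and the bar beside them is the mean with its SD (n = 4). For HBEGF, ERRFI1 and TGFA every control library lies above every treated library, and BTC with oxozeaenol has a single low library at 2.35 CPM.

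TGFA encodes transforming growth factor alpha, a ligand of EGFR alone, at chr2:70447280-70554193 on the minus strand. Control libraries held 46.0, 45.8, 44.8 and 41.3 CPM of TGFA. The PI103 libraries held 27.9, 24.4, 25.5 and 22.2 CPM, the PD0325901 libraries 23.2, 22.7, 21.6 and 18.9 CPM, and the oxozeaenol libraries 38.5, 38.4, 31.9 and 35.1 CPM. The oxozeaenol libraries lay between the control range and the range of the other 2 single agents.

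TGFA stood at 30.2, 29.6, 32.7 and 29.4 CPM in the combination with oxozeaenol and at 24.1, 24.2, 22.7 and 20.7 CPM in that with PD0325901. Its log2 fold change was -0.83 with PI103 (SE 0.0851, adjusted p 1.02e-08), -1.04 with PD0325901 (SE 0.0855, adjusted p 1.45e-10) and -0.30 with oxozeaenol (SE 0.0844, adjusted p 0.00387). In the combinations it was -0.55 (SE 0.0846, adjusted p 5.49e-06) with oxozeaenol and -0.96 (SE 0.0853, adjusted p 3.88e-10) with PD0325901. TGFA was lower in 4 of 4 batches in each of the 5 treatments. The levels were ordered control, oxozeaenol, PI103 with oxozeaenol, PI103, PI103 with PD0325901 and PD0325901, and the neighbours that differed were control and oxozeaenol, and PI103 with oxozeaenol and PI103 (adjusted p 0.0188). The second of these was lost without replicate 3 of the combination or replicate 4 of PI103, and with no filter on low counts.

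BTC encodes betacellulin, a ligand of EGFR and ERBB4, at chr4:74744759-74794686 on the minus strand, in the cluster that also holds EREG, AREG and EPGN. It was counted at 5.44, 5.05, 4.25 and 5.64 CPM in control. It stood at 2.58, 2.27, 2.78 and 2.88 CPM with PI103, at 2.74, 2.61, 2.51 and 2.59 CPM with PD0325901 and at 2.35, 3.68, 3.86 and 3.79 CPM with oxozeaenol. The first oxozeaenol library stood apart from the other 3, and no treated library reached the control range.

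The combinations held 2.40, 3.37, 2.79 and 2.67 CPM of BTC with oxozeaenol and 2.30, 2.39, 2.49 and 3.15 CPM with PD0325901. The log2 fold change of BTC was -0.95 with PI103 (SE 0.155, adjusted p 1.22e-05), -0.96 with PD0325901 (SE 0.155, adjusted p 7.47e-06) and -0.58 with oxozeaenol (SE 0.153, adjusted p 0.00276). In the combinations it was -0.86 (SE 0.154, adjusted p 3.77e-05) with oxozeaenol and -0.98 (SE 0.155, adjusted p 4.23e-06) with PD0325901. Only control and oxozeaenol differed among neighbours in the order of BTC levels, which had control first, then oxozeaenol, PI103 with oxozeaenol, PI103, PD0325901 and last PI103 with PD0325901.

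EREG encodes epiregulin, a ligand of EGFR and ERBB4, at chr4:74365143-74388751 on the plus strand, and was near the floor of the assay. Its libraries held 3, 4, 13 and 10 counts in control, 7, 3, 8 and 4 with PI103, 9, 13, 14 and 10 with PD0325901 and 8, 12, 9 and 10 with oxozeaenol. In the combinations they held 14, 11, 6 and 12 counts with oxozeaenol and 8, 13, 11 and 6 with PD0325901. All treated groups overlapped control, and no difference from control passed the test. No control or PI103 library (at most 0.159 and 0.137 CPM) reached the level of the filter, so EREG passed it through the other groups. Its tests are therefore given as a description, and no conclusion is drawn from them. The log2 differences of EREG from control were -0.24 with PI103 (adjusted p 0.659), 0.79 with PD0325901 (adjusted p 0.0792), 0.72 with oxozeaenol (adjusted p 0.126), 0.69 in the combination with oxozeaenol (adjusted p 0.132) and 0.46 in that with PD0325901 (adjusted p 0.309). With PD0325901 the 95% interval ran from 0.0031 to 1.58, and without control replicate 3 the difference passed the test at an adjusted p of 0.0330, with 0.0330 to 0.220 over all alternatives.

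AREG, EPGN and NRG1 gave almost no counts. AREG, the amphiregulin gene at chr4:74445134-74455009, was listed at 0 in all 24 libraries. EIF4A1, looked up after the values were seen because all cells use it, was listed at 0 in all 24 libraries too, so a 0 in this table is not by itself a measure of expression. EPGN (epigen, chr4:74308473-74315307) had 1 count over the 24 libraries. A library with 0 counts allows a level of up to 3 counts, between 0.0367 and 0.0851 CPM over the libraries, which covers counting error only. NRG1, which encodes neuregulin 1, a ligand of ERBB3 and ERBB4, had 15 counts in 12 libraries and at most 2 in any. NRG1 totalled 2 counts in control, 6 with PI103, 0 with PD0325901 and 1 with oxozeaenol, and in the combinations 2 with oxozeaenol and 4 with PD0325901. The exact two-sided permutation test of NRG1 CPM with PI103 against control gave p = 0.0857, where the smallest p for 4 against 4 is 0.0286, and the other 4 treatments gave p of at least 0.314. No difference in NRG1 was detected by this test.

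Divided by exon length, the ligands could be set beside each other, except AREG, whose 0 cannot be read as a level. In control, HBEGF stood at 28.0 ± 5.46 CPM per kb (SD, n = 4), TGFA at 8.96 ± 0.437, BTC at 1.81 ± 0.218 and EREG at 0.0181 ± 0.00885. HBEGF made up 71.7 ± 4.30% of the summed level of the other 6 ligands per kb in control, TGFA 23.5 ± 3.91% and BTC 4.70 ± 0.646%. The HBEGF share was 35.4 ± 1.49% with PI103, 49.8 ± 1.16% with PD0325901 and 34.1 ± 4.59% with oxozeaenol, and that of TGFA 54.3 ± 0.853%, 41.1 ± 0.526% and 56.1 ± 2.62%. Among these 6, TGFA therefore had the highest level per kb in every library with PI103 or oxozeaenol alone, and HBEGF kept that place in every library with PD0325901 alone.

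In the combinations the HBEGF share was 38.7 ± 1.87% with oxozeaenol and 46.7 ± 1.61% with PD0325901. The summed level was 38.8 ± 5.27 CPM per kb in control and 9.27 ± 0.756 with PI103, 10.6 ± 0.995 with PD0325901 and 13.0 ± 1.48 with oxozeaenol. It was 11.7 ± 0.315 and 10.5 ± 0.545 CPM per kb in the combinations with oxozeaenol and with PD0325901. The highest treated library, at 14.4 CPM per kb, lay below the lowest control library, at 34.1. Lengths are the union of exons in GENCODE release 29, which may differ from the annotation the counts rest on.

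**Figure D3:**
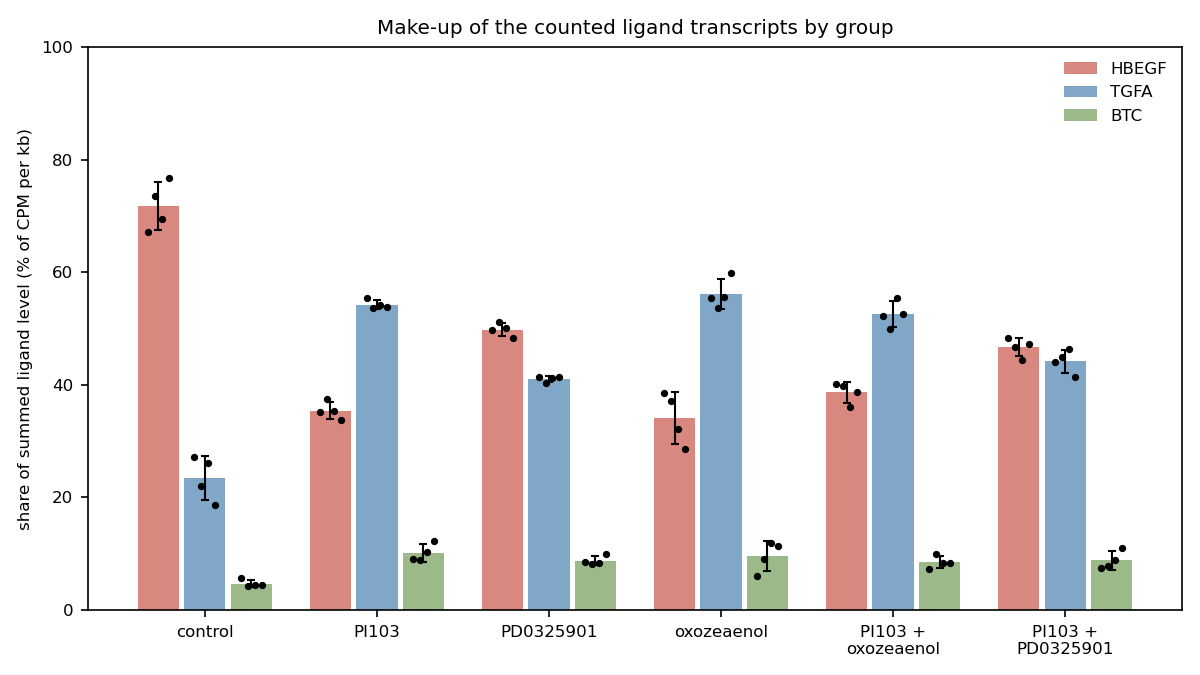
Share (percent, vertical axis) of HBEGF, TGFA and BTC in the summed CPM per kb of the 6 ligands other than AREG in each group; bars are means from 0, points the 4 libraries and error bars the SD. HBEGF is 71.7% of the sum in control, and TGFA exceeds it with PI103, with oxozeaenol and with PI103 and oxozeaenol.

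ERRFI1, the receptor's feedback inhibitor, was the most abundant member and the one that fell most with PD0325901 and with oxozeaenol. Its gene lies at chr1:8004404-8026308 on the minus strand, and 3.7% of its exon length lies opposite the antisense gene AL034417.4, whose reads can be told apart only if counting used strand. ERRFI1 stood at 1364, 1857, 1564 and 1921 CPM in control and at 301, 249, 252 and 231 CPM with PI103. With PD0325901 it stood at 123, 68.1, 94.8 and 86.1 CPM and with oxozeaenol at 149.7, 188, 109 and 74.5 CPM. All PI103 libraries lay above all libraries of the other 4 treatments, and all control libraries above those.

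In the combinations ERRFI1 stood at 127, 172, 118 and 108 CPM with oxozeaenol and at 82.0, 54.2, 84.7 and 78.5 CPM with PD0325901. Its log2 fold change was -2.70 with PI103 (SE 0.229, adjusted p 1.26e-09), -4.17 with PD0325901 (SE 0.245, adjusted p 1.78e-12) and -3.68 with oxozeaenol (SE 0.240, adjusted p 1.87e-11). In the combinations it was -3.68 with oxozeaenol (SE 0.240, adjusted p 1.38e-11) and -4.49 with PD0325901 (SE 0.249, adjusted p 4.06e-13). Among 13947 genes ordered from the largest fall, ERRFI1 was number 34 with oxozeaenol, 42 with PD0325901 and 101 with PI103. By CPM per kb, ERRFI1 was number 75 of 20195 genes with a length in control and number 2392 with PI103 and PD0325901.

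The order of ERRFI1 levels was control (1676 ± 260 CPM, SD, n = 4), PI103 (258 ± 30.1), PI103 with oxozeaenol (131 ± 28.2), oxozeaenol (130.3 ± 49.0), PD0325901 (93.1 ± 23.0) and PI103 with PD0325901 (74.8 ± 14.0). Control differed from PI103, and PI103 differed from its combination with oxozeaenol. Among the lower 4 groups, no neighbours differed beyond the spread between replicates.

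Of the sheddases, ADAM17 fell in 4 of the 5 treatments and ADAM10 rose in 3. ADAM17 (chr2:9488486-9556732, minus strand) held 81.8, 85.8, 89.4 and 89.5 CPM in control and 54.2, 55.7, 60.1 and 50.5 CPM with PI103. With PD0325901 it held 76.3, 94.7, 73.1 and 76.9 CPM and with oxozeaenol 69.9, 75.8, 63.8 and 62.8 CPM. PI103 and oxozeaenol libraries lay below all control libraries, and PD0325901 libraries overlapped them.

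The log2 fold change of ADAM17 was -0.65 with PI103 (SE 0.0839, adjusted p 4.33e-07) and -0.35 with oxozeaenol (SE 0.0836, adjusted p 0.00115). It was -0.46 in the combination with oxozeaenol (SE 0.0836, adjusted p 3.97e-05), where its libraries held 60.6 to 65.7 CPM, and -0.27 in that with PD0325901 (SE 0.0835, adjusted p 0.00564), where they held 68.4 to 79.1 CPM. With PD0325901 the difference was -0.11 (95% interval -0.28 to 0.06, adjusted p 0.264). No neighbours differed in the order of ADAM17 levels, with control first, then PD0325901, its combination, oxozeaenol, its combination and last PI103. Of the ADAM17 exon length, 12.3% lies opposite exons of IAH1 in GENCODE release 29, so part of its count is uncertain unless counting used strand.

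ADAM10 (chr15:58588807-58749978, minus strand) held 216, 181, 238 and 174 CPM in control, 249, 329.9, 222 and 226 CPM with PD0325901 and 301, 327, 277 and 276 CPM with PI103 and PD0325901. All libraries of that combination lay above all control libraries, and those of PD0325901 overlapped control. ADAM10 rose by 0.54 on the log2 scale with PI103 and PD0325901 (SE 0.113, adjusted p 0.000159) and by 0.34 with PD0325901 (SE 0.113, adjusted p 0.0110). The call with PD0325901 was lost without PD0325901 replicate 2, the highest library, or without control replicate 4, the lowest.

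With PI103 and oxozeaenol ADAM10 was 0.27 higher than control (SE 0.113, adjusted p 0.0485). That call was lost in 7 of 14 alternatives, among them RLE scaling, no filter on low counts and leaving out any of control replicates 2 and 4 and combination replicates 1, 2 and 3. ADAM10 held 226 to 253 CPM in that combination, 197 to 250.5 CPM with PI103 and 209.8 to 249 CPM with oxozeaenol, all overlapping control. With PI103 alone and oxozeaenol alone the ADAM10 differences were 0.16 (adjusted p 0.233) and 0.18 (adjusted p 0.192). No neighbours differed in the order of ADAM10 levels, with PI103 and PD0325901 together first, then PD0325901, PI103 with oxozeaenol, oxozeaenol, PI103 and last control.

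**Figure D4:**
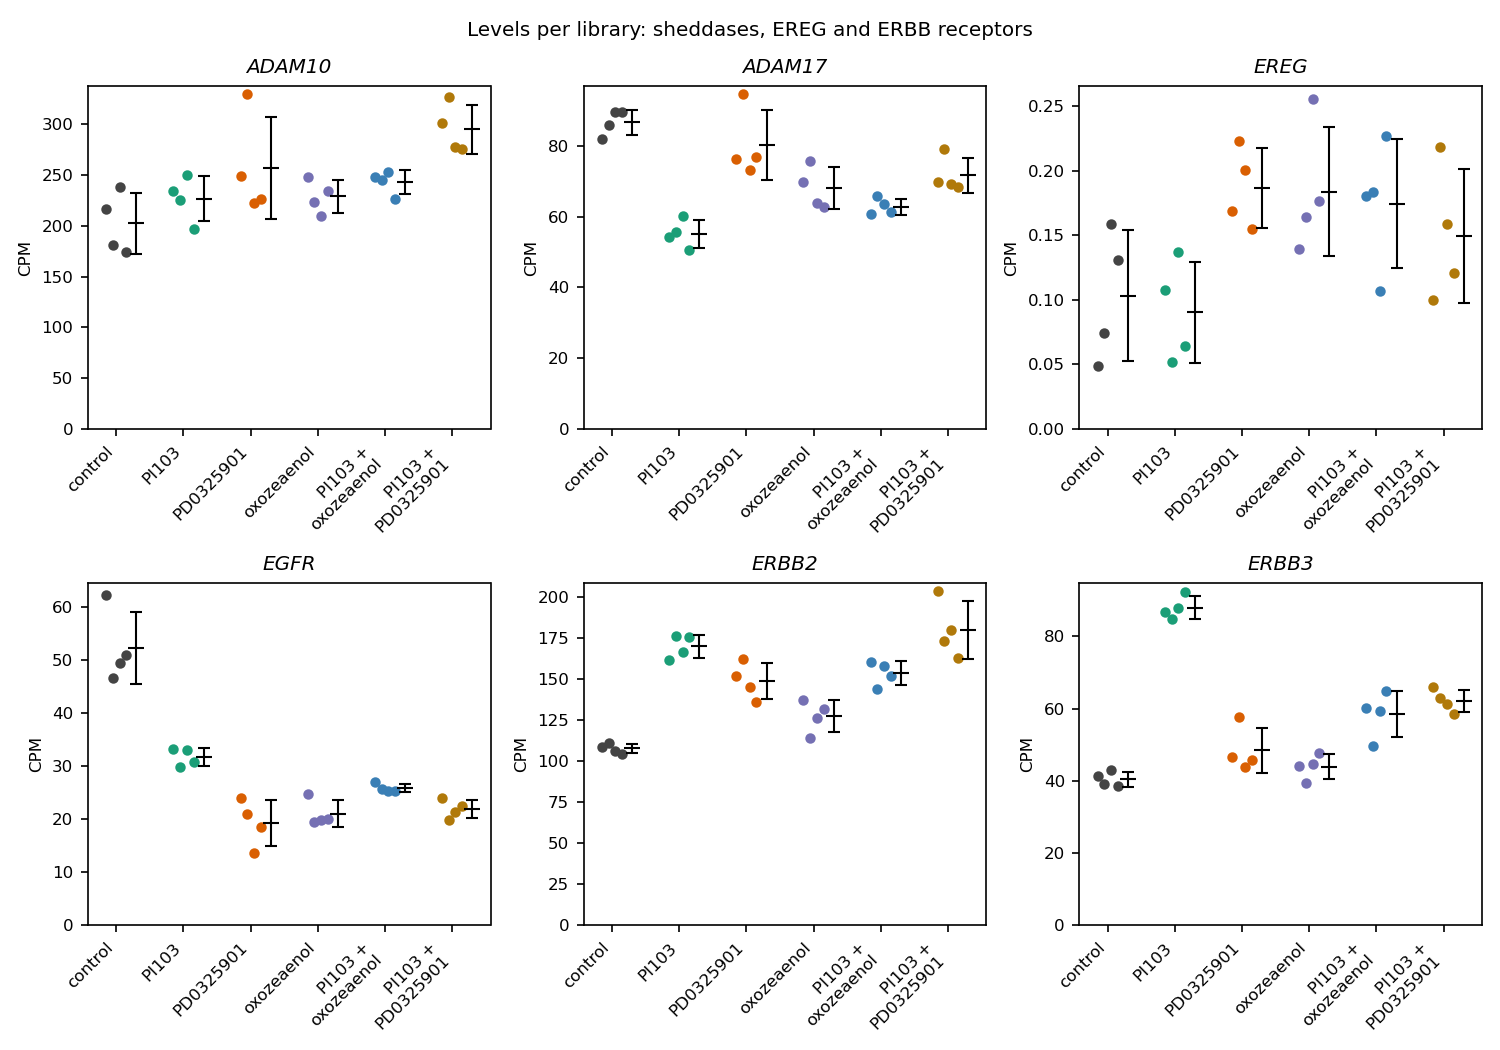
CPM per library on linear axes from 0 for ADAM10, ADAM17, EREG and the receptors EGFR, ERBB2 and ERBB3 in the 6 groups; points are libraries and the bar beside them is the mean with its SD (n = 4). ADAM17 is lowest with PI103 (50.5 to 60.1 CPM), EGFR is highest in control, and ERBB3 is highest with PI103 (84.8 to 92.2 CPM).

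The next question was whether combinations at 50% of each concentration differed from their agents. PI103 with oxozeaenol against PI103 had 3 of 7 members called, against 18.3% of all genes. ERRFI1 was lower, at -0.98 on the log2 scale (95% interval -1.43 to -0.53, adjusted p 0.00239), HBEGF higher by 0.46 (0.17 to 0.75, adjusted p 0.0217) and TGFA higher by 0.29 (0.11 to 0.46, adjusted p 0.0188). The HBEGF call was lost without combination replicate 1 or 2 or PI103 replicate 4.

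Against oxozeaenol, the same combination had 0 members called by edgeR's quasi-likelihood test, where 14.9% of all genes were called. At an unadjusted p under 0.05 there was 1 member, and DESeq2 called 1. This was TGFA, at -0.24 on the log2 scale (adjusted p 0.0542), which passed with the batch as a replicate block (adjusted p 0.0153, with 0.0153 to 0.151 over all alternatives). The difference in HBEGF was 0.02 (95% interval -0.27 to 0.30) and that in ERRFI1 0.01 (95% interval -0.44 to 0.46).

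PI103 with PD0325901 against PI103 had 4 members called, against 38.7% of all genes. ERRFI1 was lower, at -1.79 (95% interval -2.25 to -1.33, adjusted p 1.23e-06), HBEGF higher by 0.57 (0.29 to 0.86, adjusted p 0.00200), ADAM10 higher by 0.38 (0.15 to 0.61, adjusted p 0.00931) and ADAM17 higher by 0.38 (0.21 to 0.55, adjusted p 0.000859). So ERRFI1 and HBEGF differed in opposite directions, the inhibitor lower and the ligand higher than with PI103 alone. Against PD0325901 alone, 0 members were called by edgeR's test where 18.1% of all genes were called, and 0 had an unadjusted p under 0.05 or were called by DESeq2. The ERRFI1 difference from PD0325901 was -0.31 (95% interval -0.76 to 0.13) and that of HBEGF -0.11 (95% interval -0.40 to 0.17). Leaving out PD0325901 replicate 2 brought in ADAM10, at an adjusted p of 0.0287, with 0.0287 to 0.522 over all alternatives.

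Each combination was also set against the mean log2 effect of its agents. A combination would lie there if log2 effects were proportional to concentration and those of its agents added up. Neither condition was tested. PI103 with PD0325901 differed from this mean in 2 members, where 22.0% of all genes were called. ERRFI1 was lower than the mean, at -1.05 (95% interval -1.46 to -0.65, adjusted p 0.000659), with -0.84 to -1.26 within batches. ADAM10 was higher by 0.29 (95% interval 0.09 to 0.49, adjusted p 0.0325), a call lost on leaving out any of 7 libraries: PI103 replicate 2 or 4, PD0325901 replicate 1, 3 or 4, or replicate 1 or 2 of the combination. For HBEGF the difference was 0.23 (95% interval -0.01 to 0.47).

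PI103 with oxozeaenol differed from the mean in 0 members by edgeR's test, where 3.98% of all genes were called, 1 member had an unadjusted p under 0.05 and DESeq2 called 0. That member was ERRFI1, at -0.48 (95% interval -0.88 to -0.09, adjusted p 0.185), which passed without oxozeaenol replicate 4 (adjusted p 0.0393, with 0.0393 to 0.434 over all alternatives).

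**Figure D5:**
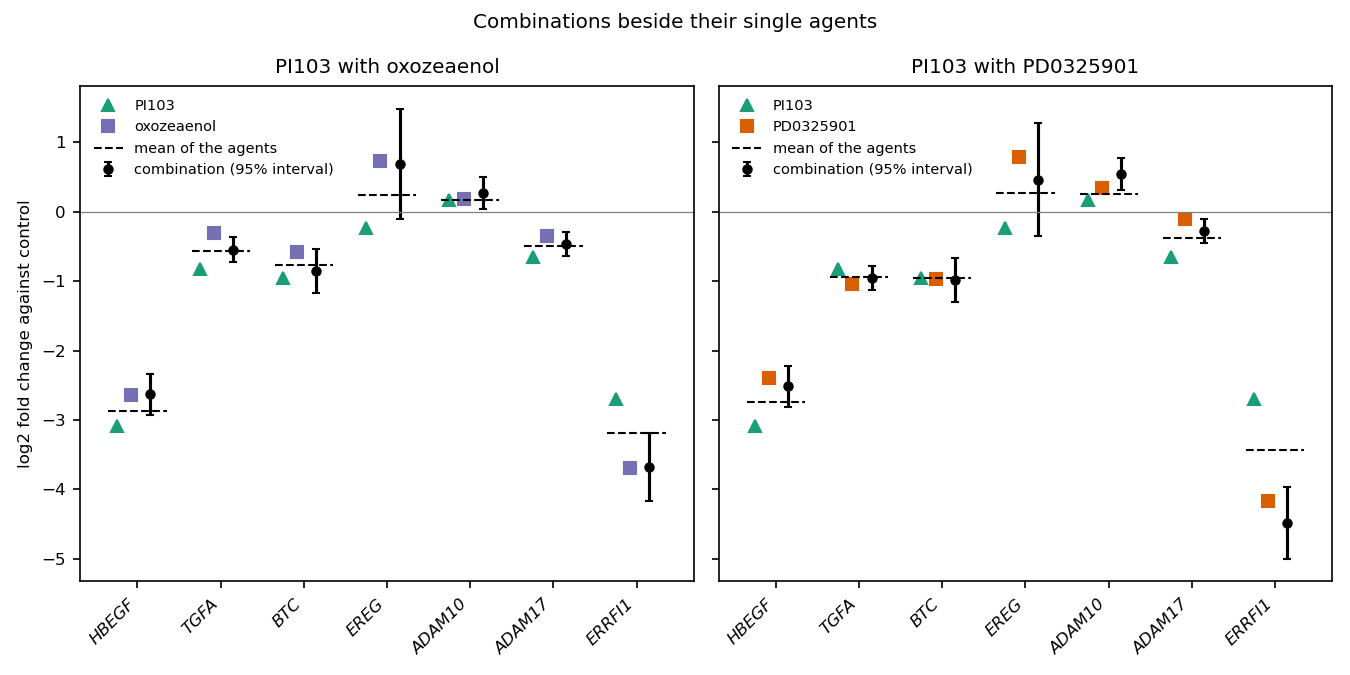
Log2 fold change against control (vertical axis) of the 7 tested members in each combination (black, with its 95% interval), its 2 single agents (coloured symbols) and their mean (dashed). In the right panel ERRFI1 with PI103 and PD0325901 (-4.49) lies below the mean of its agents, and in both panels HBEGF of the combination lies above PI103 alone.

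Single agents were also compared with each other. PI103 against PD0325901 had 5 members called, EREG among them, against 44.5% of all genes. Leaving out single libraries gave 3 to 4 calls and DESeq2 gave 3, so the share of members is not read as a result. ERRFI1 was 1.47 higher with PI103 (adjusted p 8.48e-06), while HBEGF was lower, at -0.69 (adjusted p 0.000249), and so was ADAM17, at -0.54 (adjusted p 8.87e-06). EREG differed by -1.03 (adjusted p 0.0389), a description only, since it passed the filter through groups other than PI103. TGFA differed by 0.21 (adjusted p 0.0481). Those last calls rested on single libraries. EREG was lost without PI103 replicate 1, 2 or 4 or PD0325901 replicate 2 or 3, and TGFA without PI103 replicate 1, 2 or 3 or any PD0325901 library, and both were lost with DESeq2.

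PI103 against oxozeaenol had 4 calls, against 43.1% of all genes: ERRFI1 was 0.99 higher with PI103 (adjusted p 0.000832), and TGFA, HBEGF and ADAM17 were lower, at -0.53, -0.44 and -0.30. Oxozeaenol against PD0325901 had 2 calls, against 28.5%. TGFA was 0.74 higher with oxozeaenol (adjusted p 8.43e-07) and ADAM17 was lower, at -0.24 (adjusted p 0.0351), a call lost without PD0325901 replicate 2 or oxozeaenol replicate 3 or 4. TGFA thus separated oxozeaenol from the other 2 agents, and ERRFI1 separated PI103 from them.

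The remaining pairs served the order of levels. PI103 with oxozeaenol against PD0325901 had 2 calls (TGFA 0.50 and ADAM17 -0.35) against 36.8% of all genes. PI103 with PD0325901 against oxozeaenol had 4 calls (ADAM10 0.37, TGFA -0.65, ERRFI1 -0.80 and BTC -0.41) against 43.9%, and the BTC call was lost without any of oxozeaenol replicates 2, 3 and 4 or combination replicates 1, 2 and 3, and with no filter on low counts. The combinations differed from each other in 2 members against 29.9% of all genes, with ERRFI1 0.81 and TGFA 0.41 higher in that with oxozeaenol. With the batch as a replicate block, 4 members differed there, while the calls over all 13947 genes rose from 4170 to 5075.

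The receptors that these ligands bind did not move as a unit. EGFR, which binds HBEGF, TGFA, BTC and EREG, stood at 52.2 ± 6.83 CPM (SD, n = 4) in control, 31.7 ± 1.74 with PI103, 19.3 ± 4.32 with PD0325901 and 21.0 ± 2.53 with oxozeaenol. Its log2 fold change was -0.72 with PI103 (adjusted p 1.62e-05), -1.44 with PD0325901 (adjusted p 2.25e-10) and -1.31 with oxozeaenol (adjusted p 2.24e-09). In the combinations it was -1.01 with oxozeaenol and -1.26 with PD0325901, and all 5 passed the test. ERBB2, the partner receptor that binds no ligand of its own, rose in each treatment, by 0.66 with PI103, 0.47 with PD0325901, 0.24 with oxozeaenol (adjusted p 0.0105), and in the combinations 0.51 with oxozeaenol and 0.74 with PD0325901.

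ERBB3, a receptor for neuregulins with little kinase activity, rose by 1.12 with PI103 (adjusted p 1.36e-10), from 40.5 ± 2.06 to 87.9 ± 3.15 CPM (SD, n = 4). It rose by 0.26 with PD0325901 (adjusted p 0.0143), by 0.53 and 0.62 in the combinations with oxozeaenol and with PD0325901, and differed by 0.12 with oxozeaenol (adjusted p 0.273). ERBB4 did not pass the filter, at no more than 0.157 CPM in a library.

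Other genes of the pathway came from 4 lists. Of 4 further EGF family ligands (EGF, NRG2, NRG3 and NRG4), only NRG4 passed the filter. NRG4 encodes neuregulin 4, a ligand of ERBB4, and is named here after its values were seen. It had 2, 3, 9 and 4 counts in control, 33, 66, 34 and 41 with PD0325901 and 17, 27, 15 and 8 with PI103 and PD0325901. With PI103 it had 2 counts in a single library. NRG4 reached 0.719 ± 0.284 CPM (SD, n = 4) with PD0325901, the group with its highest counts. Since it passed the filter through its high counts there and was picked for them, these values are a description, with no test.

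Of 24 other sheddases and genes that control shedding, 20 were tested. The list holds metalloproteinase inhibitors beside proteases, also among the genes called higher, so its counts do not measure shedding. With PI103, 14 were higher and 1 lower, with PD0325901 13 and 2, and with oxozeaenol 8 and 2. In the combinations 12 were higher and 3 lower with oxozeaenol, and 13 and 1 with PD0325901. Over all genes, 26.2% were called higher with PI103, 28.7% with PD0325901, 25.7% with oxozeaenol, and 27.7% and 32.2% in the combinations with oxozeaenol and with PD0325901. The median log2 fold changes of the list were 0.45, 0.37, 0.23, 0.33 and 0.59 in that order, beside medians between -0.02 and 0.02 over all genes. The largest rise was that of BACE2, a membrane aspartyl protease, in 4 treatments: 0.88 with PI103, 0.78 with PD0325901, 0.53 with oxozeaenol and 1.13 with PI103 and PD0325901. In PI103 with oxozeaenol it was that of PCSK6, a proprotein convertase, at 1.12. FURIN, the convertase that removes the prodomain of ADAM10 and ADAM17, had the largest fall with PD0325901 (-0.36), oxozeaenol (-0.83) and the combinations with oxozeaenol (-0.52) and PD0325901 (-0.22), and with PI103 alone it rose by 0.45. There the only fall was that of TSPAN17, a tetraspanin partner of ADAM10, at -0.25.

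Of 8 other negative regulators of the receptors, all tested, 1 was higher and 3 were lower with PI103, 1 and 5 with PD0325901, 0 and 3 with oxozeaenol, and 1 and 4 in each combination. With PI103 and with oxozeaenol the calls in either direction, 4 and 3 of 8, were no larger a share than the 51.4% and 51.9% of all genes. They were 6 of 8 with PD0325901, beside 58.6%, and 5 of 8 in the combinations with oxozeaenol and with PD0325901, beside 55.6% and 64.8%. The medians of the list were -0.17, -0.36, -0.22, -0.18 and -0.33 in the order used above. RNF41, a ubiquitin ligase that acts on ERBB3, had the largest fall with PI103 (-1.56), with oxozeaenol (from 112.5 to 56.2 CPM) and in the combinations with oxozeaenol (-1.45) and PD0325901 (-1.34). With PD0325901 the largest fall was that of LRIG1, a membrane protein that promotes receptor breakdown, at -0.76, and LRIG1 rose by 0.36 with PI103 and oxozeaenol. SH3KBP1, an adaptor in receptor endocytosis, rose by 0.76 with PD0325901 and by 0.70 in its combination, and SOCS5 rose by 0.41 with PI103.

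Of the 6 receptor adaptors, 2 were higher and 2 lower with PI103 and with PD0325901, 1 and 3 with oxozeaenol, and in the combinations 2 and 3 with oxozeaenol and 3 and 2 with PD0325901. The 4 of 6 called with each single agent lie near the 51.4%, 58.6% and 51.9% of all genes called with PI103, PD0325901 and oxozeaenol. In the combinations 5 of 6 were called, beside 55.6% of all genes with oxozeaenol and 64.8% with PD0325901. GAB1, a docking protein for PI3 kinase, had the largest rise with PD0325901 (0.92) and with PI103 and PD0325901 (1.16). PLCG1, a phospholipase, had it with PI103 (0.37), oxozeaenol (0.60) and PI103 and oxozeaenol (0.67). The largest falls were those of PTPN11 and SOS1, between -0.30 and -0.52.

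Across the 24 libraries, the genes whose log2 CPM followed the members most closely were read off as a description, among 10035 genes. For HBEGF these were ARHGEF2 (Pearson r 0.981) and NEDD9 (0.974), and for ERRFI1 IER3 (0.989) and H1F0 (0.986). TGFA was closest to C6orf228 (0.929) and TXNRD1 (0.928), and BTC to GTF2H3 (0.918) and SLCO1B3 (0.913). ADAM10 was closest to UGGT1 (0.935) and VPS13C (0.926), ADAM17 to IBTK (0.960) and GFPT1 (0.945), and EREG to NAAA (0.762) and SNX14 (0.760). Among the members, HBEGF and ERRFI1 had an r of 0.83, HBEGF and BTC 0.77, HBEGF and TGFA 0.68, and ADAM10 and ADAM17 0.09. The libraries fall into 6 groups, with control far from the rest for HBEGF and ERRFI1, and the members of a pair share libraries and depth.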

How the data were processed

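RNA was sequenced from 24 AGS libraries, 6 groups of 4, with a stranded mRNA kit, per the labels' protocols. Deposited values are raw read counts for each gene symbol, whole numbers made by the authors against GRCh38, per the submitters' processing notes. The aligner, counting program, strand setting and annotation are not given in the sources used here. The 5 closing tallies of unassigned reads were kept out of library sizes and tests: reads with no feature, ambiguous reads and reads without a unique alignment made up 4.24% to 8.57%, 1.57% to 2.01% and 4.64% to 6.06% of all tallied reads per library. The table had 0 columns without a sample. Groups were taken from the titles, since the treatment field of later replicates counts the compound names upward.

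Genes were kept by filterByExpr, scaled by TMM and fitted over all 24 libraries with edgeR 4.0.16 in R 4.3.3 (robust glmQLFit, 1 coefficient per group, common biological coefficient of variation 0.131). The two-sided quasi-likelihood F test was used for 17 contrasts, with Benjamini-Hochberg adjustment over the 13947 genes tested, at 0.05. SE is the size of the log2 fold change over the root of F. CPM use the TMM-scaled library, and within-batch log2 ratios added 0.1 CPM. Members under the filter were compared by exact permutation. On simulated counts for PI103 against control over 13947 genes, the fit called 8 unchanged genes. It recovered 79% of 100 genes changed by 1 on the log2 scale and 99% of 100 changed by 2. Its behaviour with as large a share of changed genes as the 51.4% called with PI103 here was not tested. Coordinates, exon lengths and overlaps are from GENCODE release 29 (GRCh38), and promoters from RefSeq (GRCh38.p14).

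The 10 members, the lists and the tests were chosen with earlier results of these data known. Text names all members and the 4 ERBB receptors. From the other lists it names, per treatment, the largest rise and fall among called genes with a mean of at least 5 CPM and 1 sign in 4 batches. For each tested member it names the 2 genes with the highest Pearson r. The batch number pairs the libraries: deviations from group means had a mean correlation of 0.12 over 60 same-numbered pairs (47 positive) and -0.04 over 180 others. Where the labels' biological replicates are not separate cultures, p-values measure only the spread between libraries. Alternatives were RLE scaling, DESeq2 1.42.0, no filter, a mean of at least 5 CPM, a replicate block, only the groups compared, and leaving out each library.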

Additional observations from a re-analysis of the deposited data

Results flagged for a closer look

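In 42 groups of 4 libraries (7 tested members in 6 groups), 2 held a library whose gap to the nearest other, divided by the range of the group, exceeded Dixon's 95% critical value for 4 libraries. Chance flags about 1 in 20 such groups. BTC with oxozeaenol stood at 2.35 CPM in replicate 1 and at 3.68 to 3.86 CPM in the others, a ratio of 0.883. Without that library BTC fell by 0.44 on the log2 scale with oxozeaenol against control (adjusted p 0.0150, with 0.000408 to 0.015 over all alternatives). ADAM17 with PI103 and PD0325901 stood at 79.1 CPM in replicate 2 and at 68.4 to 69.8 CPM in the others, a ratio of 0.871. Without it ADAM17 fell by 0.32 against control (adjusted p 0.00265, with 0.00141 to 0.0333 over all alternatives).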

How the results depend on the processing

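Over the 6 alternatives that kept all libraries compared, 467 log2 fold changes kept their direction and their side of the threshold, 9 lost the call, 3 gained it and 1 changed sign. The falls of HBEGF, ERRFI1 and TGFA against control passed in every alternative run, as did those of BTC, which the minimum of 5 CPM left out. With the batch number as a replicate block, 93 of 94 member values were the same. The block raised the members called to 1 in PI103 with oxozeaenol against oxozeaenol (TGFA, -0.24) and to 4 in the comparison of the combinations. Calls over all 13947 genes rose there too, from 2074 to 3090 and from 4170 to 5075. Among the 94 values TGFA was the only call to change, and member calls outside the 94 were not followed singly. The minimum of 5 CPM gave the same counts of 1 and 4, and DESeq2 gave 1 in the first and 3 in PI103 against PD0325901.

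Leaving out each library in turn, members called ranged from 3 to 4 for PI103 against PD0325901, 1 to 3 for oxozeaenol against PD0325901, 1 to 3 for PI103 with oxozeaenol against PI103 and 1 to 2 for PI103 with PD0325901 against the mean of its agents. They ranged from 0 to 1 for PI103 with oxozeaenol against oxozeaenol and against the mean, and for PI103 with PD0325901 against PD0325901. Log2 differences near 0 changed sign without single libraries. HBEGF and ERRFI1 ranged from -0.10 to 0.12 and from -0.18 to 0.24 in PI103 with oxozeaenol against oxozeaenol, and EREG there from -0.17 to 0.13. EREG ranged from -0.50 to 0.044 for PI103 against control and from -0.22 to 0.0085 for oxozeaenol against PD0325901. BTC ranged from -0.036 to 0.073 for PI103 against PD0325901, from -0.13 to 0.029 for PI103 with PD0325901 against PD0325901 and from -0.0059 to 0.17 for PI103 with oxozeaenol against PI103. ADAM10 ranged from -0.070 to 0.043 for PI103 against oxozeaenol, where no filter gave 0.0018, and from -0.14 to 0.041 for PI103 with oxozeaenol against PD0325901. The cause was not tested. Depth limits EREG, NRG1 and EPGN, which had at most 14 counts in a library.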
